A study of Homo sapiens with 12 samples.

Results

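The replication-dependent histone genes are the 69 genes, of 44700 in the gene count tables, whose symbols start with HIST1H, HIST2H, HIST3H or HIST4H; 1 pseudogene with such a symbol was left out. They encode 6 H1, 17 H2A, 18 H2B, 14 H3 and 14 H4 histones, and 54 of them lie in the HIST1 cluster of chromosome 6, 11 in HIST2 and 3 in HIST3 on chromosome 1, and 1 in HIST4 on chromosome 12. They were measured by total RNA sequencing in SK-MEL-5 and MALME-3M, established human melanoma cell lines labelled wild type, each untreated or treated with interferon gamma (IFN-γ) for 24 h, with 3 libraries per group. SK-MEL-5 was grown in MEM and received 150 ng/mL, whereas MALME-3M was grown in IMDM and received 200 ng/mL, so line, medium and dose cannot be told apart in any comparison between the lines. Cells were seeded in triplicate wells, and whether the wells were separate cultures is not said, so the p-values below cover the spread from well to well, possibly a technical one.

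Core histones H2A, H2B, H3 and H4 form the protein spool of the nucleosome, and the linker histone H1 binds the DNA that enters and leaves it. Their replication-dependent genes are mostly without introns, sit in clusters, and are transcribed mainly in S phase with NPAT at the histone locus bodies. Their messages end in a conserved stem-loop in place of a poly(A) tail, which is bound by SLBP and cut by the U7 snRNP machinery, while IFN-γ is best known for inducing the genes of antigen presentation.

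Gene counts totalled 15514412 to 22921184 per library, and the members held 0.335% to 0.451% of them. The defining markers of the melanocyte lineage had counts in all groups for 7 of 7 genes, with a summed level of 5052 to 6249 CPM, which are gene counts scaled to a common library size. Marker lists of other cell types were lower: summed levels were 0 to 1.30 CPM for lymphocyte and NK cells, 0.254 to 1.80 CPM for endothelium and 0 to 0.240 CPM for keratinocytes. The 6 fibroblast markers summed to 162 to 189 CPM in untreated SK-MEL-5, 130 to 135 CPM in treated SK-MEL-5, 18.2 to 19.5 CPM in untreated MALME-3M and 15.2 to 17.6 CPM in treated MALME-3M, nearly all of it LUM in SK-MEL-5, and COL1A2 was at 0 in untreated SK-MEL-5. The 4 macrophage markers summed to 17.9 to 23.4, 19.2 to 25.2, 210 to 216 and 110 to 121 CPM in the same order, nearly all of it CD68, with CD163 at 0 in every group but untreated MALME-3M. The part of these genes in the differences described here was not tested. In such bulk RNA, fewer cells in S phase and less histone message per cell cannot be told apart.

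The stem-loop that sets these messages apart was looked for by its consensus of 16 bases in the GENCODE 29 transcript models, and was found in 32 of 69 members: 7 H2A, 11 H2B, 6 H3, 8 H4 and 0 of 6 H1 genes. A missing match says only that the letters are not in the model. Of 6 versions of the letters found, the most frequent was shared by 17 genes of the H2A, H2B and H3 classes; a version in 5 genes and another in 3 were found in H4 genes alone. Each version is shown with up to 5 bases before and 9 after, the stem-loop in capitals.
HIST3H2BB, the version of 17 genes: ccaaaGGCTCTTTTCAGAGCCacccacacg
HIST1H4E, the version of 5 H4 genes: tcaaaGGCCCTTTTCAGGGCCgcccacagt
HIST1H2BC, shared by 5 genes of the H2B and H3 classes: ccaaaGGCTCTTTTAAGAGCCacccagata
HIST2H4A, shared by 3 H4 genes: ccaaaGGCCCTTTTTAGGGCCgaccacttg
HIST1H3E, in 1 gene: ccaaaGGCTCTTCTCAGAGCCaaccacttt
HIST1H2AG, in 1 gene: ccaacGGCTCTTTTCAGGGCCacccacgtc

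The 250 bases before the start of transcription, from RefSeq (GRCh38.p14), are shown for genes whose levels the results turn on. In capitals are, on either strand, the TATA box (TATAAA), the CCAAT box (CCAAT), the octamer bound by POU2F1 (ATTTGCAT), the H1 box (AAACACA) and the core of the interferon-stimulated response element (GAAA and GAAA with any 2 bases between them); overlapping matches run together. HIST1H1C and HIST1H1D are linker genes, the first abundant in both lines and the second at 0 counts in SK-MEL-5. HIST1H2BK and HIST1H2BI are H2B genes, the first abundant in both lines and the second with 1 to 5 counts per SK-MEL-5 library, HIST1H3G and HIST1H4L were at 0 counts in untreated SK-MEL-5, and HIST3H2BB is the member that rose with the lowest adjusted p after IFN-γ.
HIST1H1C, chr6:26056471-26056720, minus strand: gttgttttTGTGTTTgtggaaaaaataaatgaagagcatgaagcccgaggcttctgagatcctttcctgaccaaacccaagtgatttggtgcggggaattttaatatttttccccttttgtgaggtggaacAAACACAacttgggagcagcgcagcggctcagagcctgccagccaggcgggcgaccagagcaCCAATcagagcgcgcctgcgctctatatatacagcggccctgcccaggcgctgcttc
HIST1H1D, chr6:26234988-26235237, minus strand: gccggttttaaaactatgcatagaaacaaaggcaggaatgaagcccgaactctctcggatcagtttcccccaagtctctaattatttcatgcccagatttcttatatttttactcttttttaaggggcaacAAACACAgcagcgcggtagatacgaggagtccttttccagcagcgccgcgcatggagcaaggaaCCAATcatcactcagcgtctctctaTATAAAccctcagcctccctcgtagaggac
HIST1H2BK, chr6:27146856-27147105, minus strand: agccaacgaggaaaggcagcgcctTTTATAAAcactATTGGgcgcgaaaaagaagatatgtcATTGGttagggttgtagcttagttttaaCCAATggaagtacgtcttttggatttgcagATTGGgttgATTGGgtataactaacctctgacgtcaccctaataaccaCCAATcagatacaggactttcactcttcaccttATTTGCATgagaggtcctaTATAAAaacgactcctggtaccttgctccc
HIST1H2BI, chr6:26272681-26272930, plus strand: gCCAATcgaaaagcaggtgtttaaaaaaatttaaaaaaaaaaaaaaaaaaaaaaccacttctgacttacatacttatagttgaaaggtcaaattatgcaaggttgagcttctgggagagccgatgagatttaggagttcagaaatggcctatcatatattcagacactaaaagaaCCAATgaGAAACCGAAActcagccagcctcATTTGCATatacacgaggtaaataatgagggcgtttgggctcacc
HIST1H3G, chr6:26271414-26271663, minus strand: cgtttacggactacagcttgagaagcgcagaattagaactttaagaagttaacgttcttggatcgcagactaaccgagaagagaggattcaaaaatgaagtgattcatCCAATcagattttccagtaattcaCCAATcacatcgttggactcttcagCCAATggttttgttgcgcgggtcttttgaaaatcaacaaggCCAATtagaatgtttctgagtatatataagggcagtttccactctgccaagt
HIST1H4L, chr6:27873535-27873784, minus strand: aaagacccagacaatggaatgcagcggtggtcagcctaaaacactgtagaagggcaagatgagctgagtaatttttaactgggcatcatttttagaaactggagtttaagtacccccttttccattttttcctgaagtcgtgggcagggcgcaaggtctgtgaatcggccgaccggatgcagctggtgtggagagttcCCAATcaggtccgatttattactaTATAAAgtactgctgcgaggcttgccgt
HIST3H2BB, chr1:228457853-228458102, plus strand: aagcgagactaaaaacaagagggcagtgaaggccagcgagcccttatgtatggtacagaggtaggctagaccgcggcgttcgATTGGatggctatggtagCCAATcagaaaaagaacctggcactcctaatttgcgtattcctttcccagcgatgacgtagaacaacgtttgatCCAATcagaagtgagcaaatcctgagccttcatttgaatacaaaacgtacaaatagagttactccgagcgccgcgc

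Of the 69 members, 60 matched a RefSeq promoter, and the motifs followed the histone class. The CCAAT box was present in all 48 promoters of the H1, H2A, H2B and H3 classes (6, 14, 18 and 10) but in 3 of 12 H4 promoters; 32.0% of all 35116 RefSeq promoters of the same length held it. The octamer was in 11 of 14 H2A and 14 of 18 H2B promoters and in none of the 6 H1, 10 H3 and 12 H4 promoters, against 1.63% of all. The H1 box was in 6 of 6 H1 promoters and in none of the other 54, against 4.82%. TATAAA was in 40 of 60 promoters, against 10.7%. The H2A and H2B genes include 11 divergent pairs with 218 to 330 bp between the genes. The windows of such a pair overlap, so a motif found on either strand can be counted for both genes. The promoters of these classes are therefore not all separate sequences. The interferon-stimulated core was in 3 (HIST1H2BI, HIST1H3H and HIST2H3D), against 3.02%. These 3 were named after their matches were seen.

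**Figure D1:**
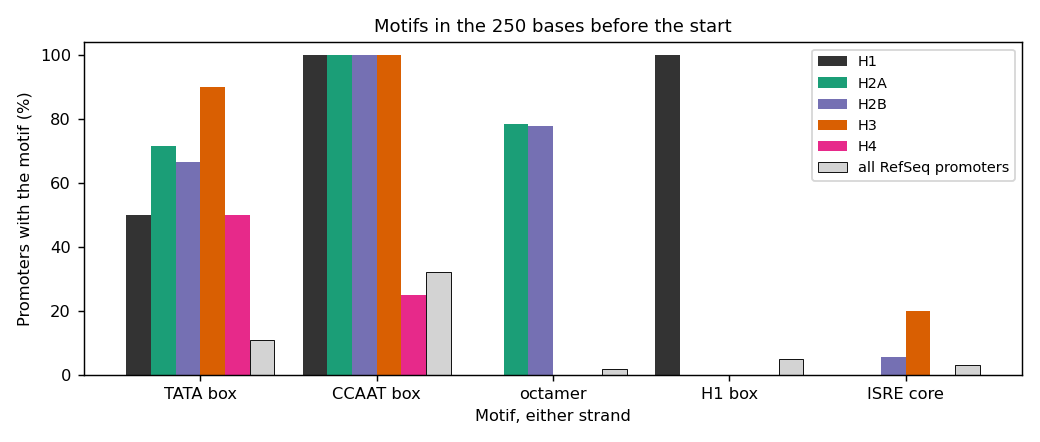
Share of promoters (percent, y axis) that held each motif (x axis, either strand) in the 250 bases before the start, by histone class, with all RefSeq promoters in grey. The H1 box stands at 100% of H1 promoters and the octamer at 78.6% of H2A and 77.8% of H2B promoters.

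The summed level of the members of the 4 groups lay within a narrow range. It was 3780, 3772 and 3576 CPM in untreated SK-MEL-5 and 3373, 3627 and 3528 CPM in treated SK-MEL-5, groups that overlap. In MALME-3M it was 4479, 4174 and 4218 CPM untreated and 3960, 3858 and 3917 CPM treated, with every treated library below every untreated one. A sum over chosen genes was given no test. The first treated SK-MEL-5 library was lowest of its group, and in it HIST1H2BK was at 114 CPM, against 187 and 172 CPM in the other treated and 190, 195 and 177 CPM in the untreated libraries (log2 -0.25 ± 0.12, adjusted p 0.233). Dividing by the coding length allows for gene size only in part, because reads outside the coding part are counted too. The transcript model of HIST1H2AG has 2250 bases for a coding length of 390, that of HIST1H2AB 393 for 390. So divided, the H2A genes summed to 2712 and 3103 CPM per kb in untreated SK-MEL-5 and MALME-3M and the H2B genes to 2649 and 2864. The sums were 767 and 1172 for H3, 863 and 1067 for H4 and 1631 and 1786 for H1. The H3 genes held 8.44% ± 0.25 of the members' counts in untreated SK-MEL-5 and 11.1% ± 0.13 in untreated MALME-3M (SD, n = 3), and 8.30% ± 0.19 and 11.8% ± 0.20 after IFN-γ. These class sums and shares rest on gene counts, which miss many reads of near-identical copies. In untreated SK-MEL-5 and MALME-3M, HIST2H2AA4 had 604 and 245 CPM by transcript estimates, against 14.3 and 3.95 by gene counts. HIST1H4J had 134 and 226 by transcript estimates, against 2.90 and 4.19. The order of the classes and their differences between the lines can therefore depend on the counting.

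**Figure D2:**
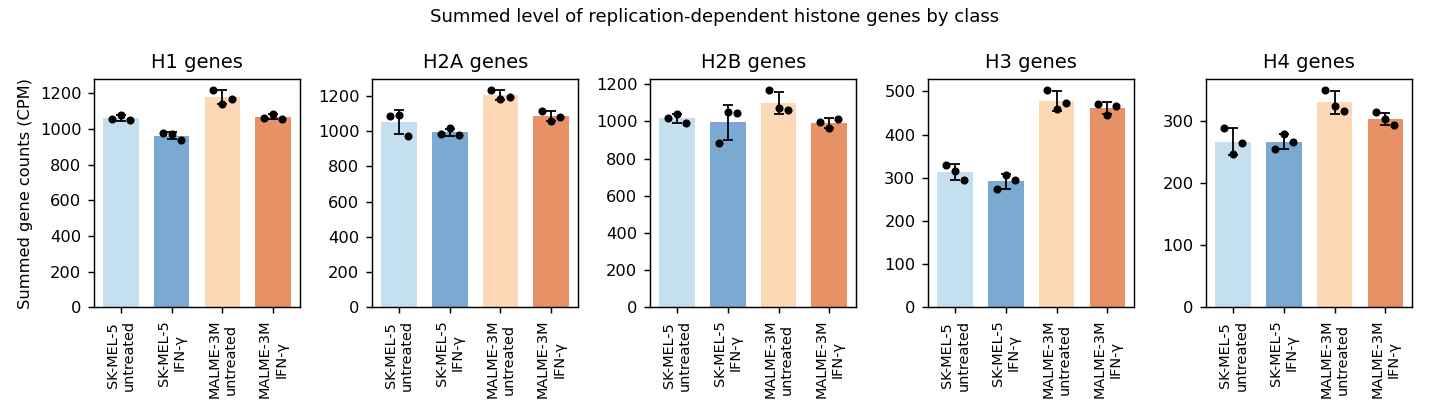
Summed CPM (y axis, from 0) of the members of each histone class in the 4 groups; bars are means, error bars the SD of 3 libraries and points the libraries. The H3 sum runs from 273 to 329 CPM in SK-MEL-5 and from 446 to 504 CPM in MALME-3M, and the first treated SK-MEL-5 library stands low in H2B at 885 CPM.

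Single genes spanned a wide range. Per coding length and by gene counts, the linker genes HIST1H1E and HIST1H1C led, with 596 and 569 CPM per kb averaged over the 12 libraries. By CPM of gene counts, which longer genes raise, the 10 highest were HIST1H1E (391), HIST1H1C (363), HIST1H1B (245), HIST1H2AJ (195), HIST1H2AE (175), HIST1H2AH (171), HIST1H2BC (167), HIST1H3B (144), HIST1H2BK (132) and HIST1H2AG (122). The order depends on how reads of near-identical copies were counted: by transcript estimates HIST2H2AA4 averaged 422 estimated CPM, after HIST1H1E (568) and HIST1H1C (523), and stood first per coding length (1083 against 864 for HIST1H1E), whereas its gene counts gave 9.08 CPM. At the other end 6 members were too low to be tested: HIST1H1T, HIST1H2AA, HIST1H2BA and HIST3H3, genes known for expression in testis, had 14, 1, 4 and 0 counts over all 12 libraries, and HIST1H2AD and HIST1H3D had 0. The last 2 overlap the gene AL031777.3 in GENCODE 29 and had 5305 and 3089 estimated transcript counts, so their 0 gene counts do not show that they were silent.

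**Figure D3:**
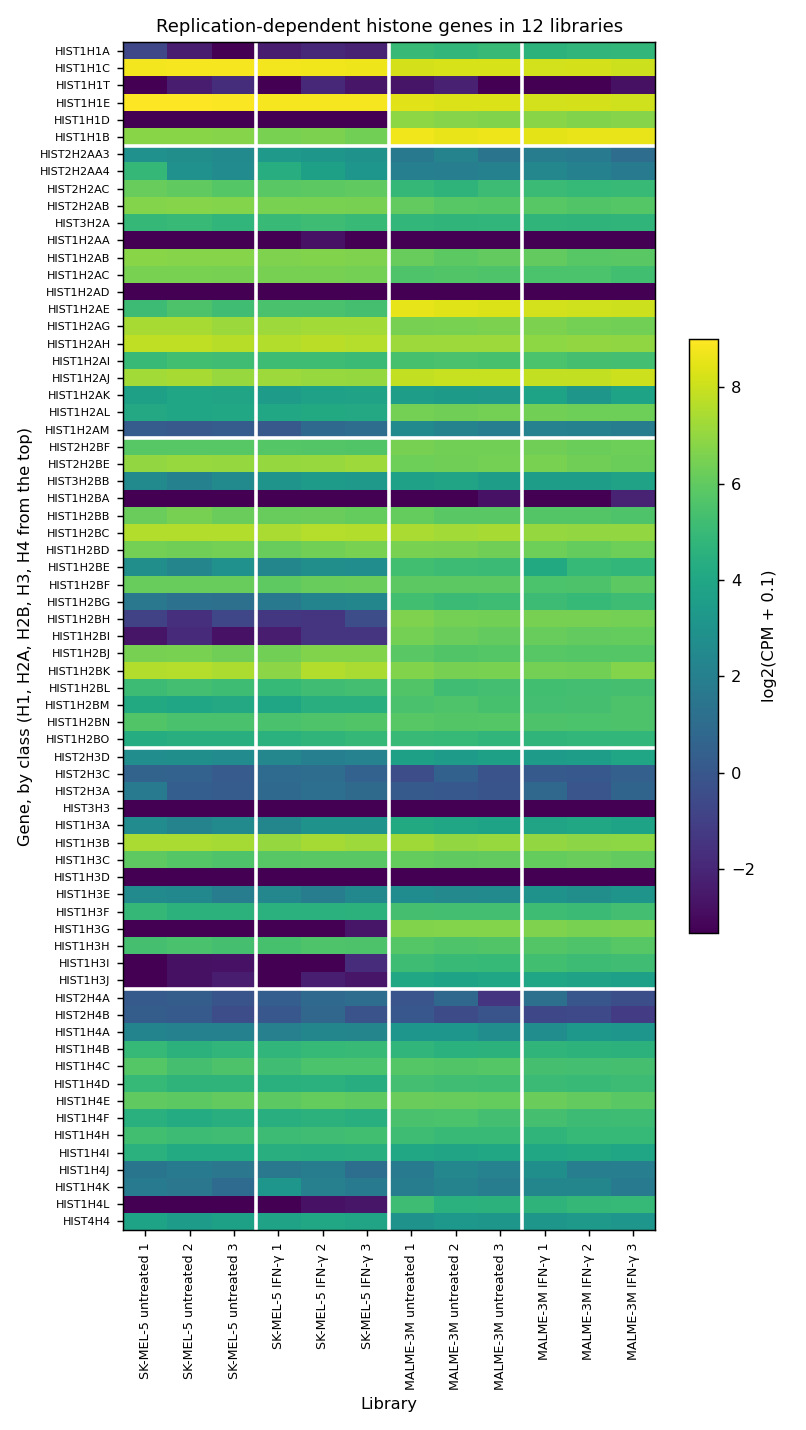
log2(CPM + 0.1) of the 69 members (rows, grouped by class and ordered along the chromosomes) in the 12 libraries (columns, 3 per group); yellow is high and dark blue low. Rows such as HIST1H1D, HIST1H2BI, HIST1H3G and HIST1H4L are dark in the 6 SK-MEL-5 libraries and bright in the 6 MALME-3M libraries.

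IFN-γ in SK-MEL-5 raised 4 members and lowered 6 of the 63 tested, which asks whether the cytokine changed histone expression in this line. These were 15.9% of the members, against 13.0% of all 15810 genes tested (5.98% higher and 7.05% lower), so the share is near the background. A gene was called throughout where edgeR's quasi-likelihood F test gave a Benjamini-Hochberg adjusted p below 0.05, the adjustment running over every gene tested. The median log2 fold change was 0.01 over the members and -0.03 over all genes. The calls were 3 of 17 H2B genes, all higher, 2 of 5 H1, 2 of 12 H3 and 1 of 15 H2A genes, all lower. Of 14 H4 genes 1 was higher and 1 lower. So few calls do not give a class a direction. The median log2 fold change was 0.02 over H2B, 0.10 over H3, 0.10 over H4, -0.04 over H2A and -0.14 over H1 genes.

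HIST3H2BB, an H2B gene of the small HIST3 cluster (chromosome 1, 228458107 to 228460470, plus strand, GENCODE 29 on GRCh38), rose with the lowest adjusted p of the 10. It was at 5.66, 4.14 and 5.77 CPM untreated and at 8.31, 11 and 10.1 CPM treated. All treated libraries lay above all untreated ones, and the log2 fold change was 0.92 ± 0.15 (SE; adjusted p 0.000299). HIST3H2A, its divergent H2A neighbour 233 bp away, was at 29.3, 32.9 and 27.2 CPM untreated and 32.4, 36.2 and 32.9 CPM treated (log2 0.18 ± 0.079, adjusted p 0.155).

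HIST1H2BG, another H2B gene (chromosome 6, 26215159 to 26216692, minus strand), was at 2.99, 2.31 and 2.23 CPM untreated and 3.08, 4.57 and 4.88 CPM treated. The groups do not overlap, though the lowest treated library is close to the highest untreated one, and the log2 fold change was 0.73 ± 0.17 (adjusted p 0.0077). HIST1H2BO, also H2B, rose by a log2 fold change of 0.33 ± 0.093 (adjusted p 0.0243; lost in 5 of 18 alternatives), from 19.8, 21.7 and 20.8 CPM to 22.9, 26.3 and 29.2 CPM, without overlap. HIST1H4K, an H4 gene, was called higher with 3.18, 2.85 and 1.87 CPM untreated and 8.70, 3.98 and 3.12 CPM treated (log2 1.03 ± 0.31, adjusted p 0.0352), but the groups overlap. Without the first treated library its log2 fold change was 0.44 and its adjusted p 0.363, the highest of a range from 0.000161 over the alternatives, and it was not called. The transcript estimates gave HIST1H4K 0 estimated CPM in both SK-MEL-5 groups and its neighbour HIST1H4J, also an H4 gene, 134 ± 18 untreated and 155 ± 11 treated (SD, n = 3), so to which gene these reads belong is uncertain.

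HIST1H1B, a linker histone gene (chromosome 6, 27866849 to 27867529, minus strand), fell with the lowest adjusted p in SK-MEL-5. Its levels were 112, 113 and 109 CPM untreated and 89.8, 95.8 and 82.2 CPM treated, with no overlap, a log2 fold change of -0.32 ± 0.057 and an adjusted p of 0.000687. The other linker gene called, HIST1H1E, went from 499, 509 and 488 CPM to 451, 458 and 445 CPM (log2 -0.14 ± 0.043, adjusted p 0.0348). HIST2H3D and HIST1H3B, both H3 genes, fell by 0.55 and 0.23 on the log2 scale, HIST1H4D by 0.31 and HIST2H2AB by 0.21, with adjusted p from 0.0137 to 0.0341. With the transcript estimates the log2 change of HIST2H3D was -0.12 (adjusted p 0.733), and of 18 alternatives its call was lost in 5, that of HIST1H3B in 7, of HIST1H4D in 3 and of HIST2H2AB in 9. Over the 63 tested members, 5 had all treated libraries above and 9 all below the untreated ones, against 29.1% of all genes with no overlap in either direction (11.7% above and 17.4% below).

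The SK-MEL-5 counts depended on single libraries. The count lower was 2 without untreated library 1 or 2, 3 without treated library 1 or 2 or MALME-3M treated library 1 or 3, which enter through the shared spread, and 1 without treated library 3; the count higher was 2 without untreated library 3. HIST3H2BB and HIST1H1B passed the threshold in all 18 alternatives.

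IFN-γ in MALME-3M lowered 9 of the 63 tested members and raised none. These 14.3% compare with 18.3% of all genes called (9.51% higher and 8.77% lower); at an unadjusted p under 0.05 edgeR gave 18 members lower and 0 higher (14.5% and 14.8% of all genes), and DESeq2 gave 14 lower and 0 higher by adjusted p (10.7% and 8.92% of all genes). The median log2 fold change was -0.09 over H2A, -0.10 over H2B and -0.13 over H1 genes, 0.05 over H3, 0.02 over H4 and 0.00 over all genes. The 9 were 4 of 17 H2B, 3 of 15 H2A, 1 of 5 H1 and 1 of 14 H4 genes, and of the 12 H3 genes 1 was lower at an unadjusted p under 0.05. Treated libraries lay below all untreated ones for 19 members and above for 1, against 33.1% of all genes with no overlap (16.5% above and 16.6% below).

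HIST1H2BC (chromosome 6, 26114873 to 26123926, minus strand) was at 171, 156 and 164 CPM untreated and 131, 127 and 129 CPM treated. The groups are far apart compared with their spread, with a log2 fold change of -0.34 ± 0.052 and an adjusted p of 0.000109. HIST1H2AC, its divergent H2A neighbour 218 bp away, went from 48.8, 49.9 and 48.6 CPM to 45.4, 45.2 and 38.3 CPM (log2 -0.19 ± 0.060, adjusted p 0.0306). HIST1H4C, an H4 gene, went from 53.5, 50.1 and 52.6 CPM to 41.5, 40.1 and 40.7 CPM (log2 -0.35 ± 0.086, adjusted p 0.00703), with no overlap.

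HIST1H1E, the linker gene also called in SK-MEL-5, was at 347, 319 and 324 CPM untreated and 288, 290 and 277 CPM treated in MALME-3M (log2 -0.21 ± 0.044, adjusted p 0.00179), and is the one member called in both lines; its call in SK-MEL-5 was lost in 10 of 18 alternatives (adjusted p up to 0.382). HIST1H2AE went from 372, 330 and 325 CPM to 284, 272 and 266 CPM (log2 -0.32 ± 0.079, adjusted p 0.00764). HIST1H2BB, HIST1H2AH, HIST1H2BD and HIST1H2BN fell by 0.26, 0.24, 0.23 and 0.22 on the log2 scale, with adjusted p from 0.00516 to 0.0485. Of 18 alternatives the calls of HIST1H2BD, HIST1H2BN, HIST1H2BB and HIST1H2AC were lost in 9, 5, 4 and 7, and with the transcript estimates HIST1H2AC had a log2 change of -0.31 (adjusted p 0.335). Those estimates gave HIST1H2AC 1636 counts over the 12 libraries, against 15148 gene counts. HIST1H2BC, HIST1H4C and HIST1H1E passed the threshold in all 18 alternatives. Without untreated library 1 the count lower was 4, and without treated library 2 the count higher was 1.

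**Figure D4:**
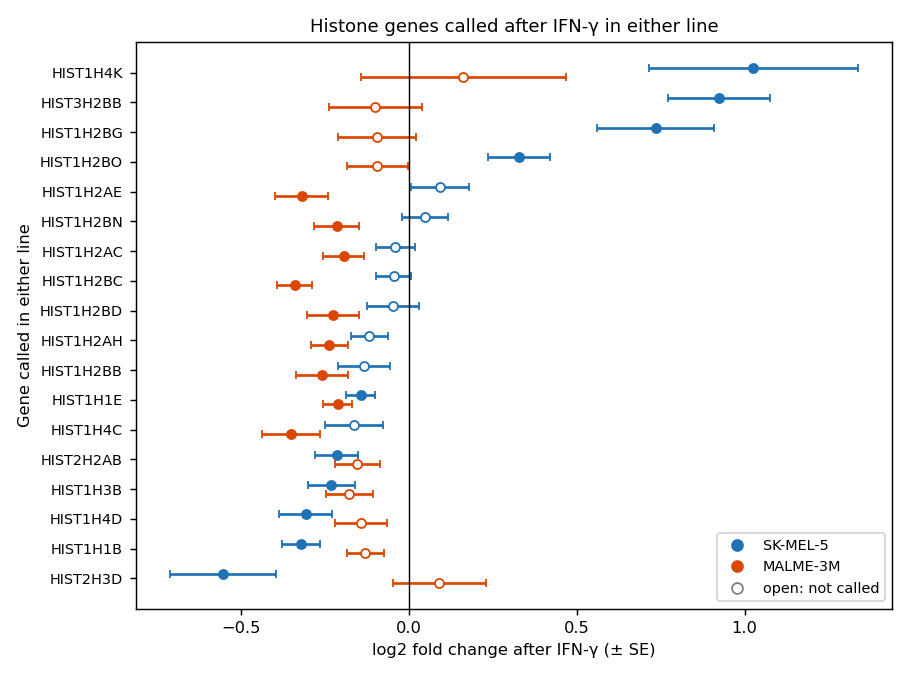
log2 fold change after IFN-γ (x axis, ± SE) of the 18 members called in either line (y axis); blue is SK-MEL-5, orange MALME-3M, and filled points were called. HIST1H1E is filled in both lines, and HIST3H2BB stands at 0.92 in SK-MEL-5 and -0.10 in MALME-3M.

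The change with IFN-γ itself differed between the lines for 3 members, all H2B genes and all lower in MALME-3M. These were 4.76% of the members, against 4.46% of all genes tested (2.67% higher and 1.79% lower), and the count higher was 0, with 2 higher and 7 lower at an unadjusted p under 0.05 in edgeR (9.68% and 6.83% of all genes) and 0 higher and 5 lower in DESeq2 (3.35% and 2.95%). HIST3H2BB, which rose in SK-MEL-5, was at 13.2, 14.4 and 11.8 CPM untreated and 11.6, 11.6 and 13.4 CPM treated in MALME-3M; the difference of the log2 fold changes was -1.02 ± 0.21 (adjusted p 0.00568). HIST1H2BG was at 38.1, 33.8 and 35.5 CPM and then 34.3, 30.1 and 36.1 CPM in MALME-3M, and differed by -0.83 ± 0.21 (adjusted p 0.0287). HIST1H2BC was at 192, 192 and 189 CPM and then 172, 195 and 189 CPM in SK-MEL-5, where the groups overlap, and differed by -0.29 ± 0.074 (adjusted p 0.0271). Of 17 alternatives the call of a difference was lost in 1 for HIST3H2BB, in 7 for HIST1H2BG and in 8 for HIST1H2BC. For the other 14 members called in a single line, a call in that line alone is not a shown difference. The count was 1 without SK-MEL-5 untreated library 3, treated library 2 or 3, MALME-3M untreated library 1 or treated library 2.

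Most members differed between the untreated lines. Of the 63 members 29 were higher and 21 lower in MALME-3M, 79.4% in all, against 71.7% of all genes (34.5% higher and 37.2% lower). At a log2 difference of at least 3, an 8-fold difference, 10 members were higher, against 5.67% of all genes, and 0 lower, against 6.91%; at 2-fold or more 18 were higher and 3 lower, against 16.7% and 16.5%. All libraries of MALME-3M lay above those of SK-MEL-5 for 32 members and below for 21, against 73.8% of all genes without overlap (35.7% above and 38.1% below). After IFN-γ 28 were higher and 24 lower (82.5%, against 71.8% of all genes, 35.4% higher and 36.4% lower), with 9 higher and 0 lower at 8-fold (5.71% and 6.76% of all genes) and 17 higher and 4 lower at 2-fold (17.0% and 15.8%). The median log2 difference over the tested members was 0.23 untreated and 0.03 treated, with members of few counts at their bounds giving the same values.

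Among the linker genes the composition differed. HIST1H1D (chromosome 6, 26234268 to 26234933, minus strand) had 0 counts in all 6 SK-MEL-5 libraries and 121, 107 and 99.9 CPM in untreated MALME-3M, at least 2102-fold higher computed against a floor of 3 counts over the group. HIST1H1A was at 0.508, 0.0890 and 0 CPM in untreated SK-MEL-5 and 32.1, 28.7 and 32.9 CPM in untreated MALME-3M (log2 7.44 ± 0.29, adjusted p 2.93e-14). HIST1H1B was higher in MALME-3M too, with 429, 382 and 407 CPM against 112, 113 and 109 CPM (log2 1.86 ± 0.058, adjusted p 7.96e-16). HIST1H1C and HIST1H1E were lower there, by 0.58 and 0.60 on the log2 scale. Of the H1 counts HIST1H1B thus held 10.5% ± 0.14 in untreated SK-MEL-5 and 34.5% ± 0.88 in untreated MALME-3M (SD, n = 3), and HIST1H1C with HIST1H1E held 42.5% ± 0.57 and 47.0% ± 0.43 in the former against 25.6% ± 1.5 and 28.0% ± 0.42 in the latter.

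Among the core histone genes, 8 were at least 8-fold higher in untreated MALME-3M and 6 of these were near silent in SK-MEL-5. HIST1H3G had 0 counts in untreated SK-MEL-5 and 100, 103 and 103 CPM in untreated MALME-3M (at least 1973-fold), and 1 count in treated SK-MEL-5. HIST1H4L had 0 counts against 35.4, 23.4 and 23.7 CPM (at least 528-fold). HIST1H3I and HIST1H3J had 2 and 3 counts over the untreated SK-MEL-5 libraries, and the ratios were 936 (95% interval 259 to 7739) and 299 (102 to 1452). HIST1H2BI was at 0.0635, 0.178 and 0.0506 CPM against 86.5, 72.6 and 65.0 CPM (log2 9.41 ± 0.20), and HIST1H2BH at 0.445, 0.222 and 0.506 CPM against 96.1, 86.2 and 81.9 CPM (log2 7.83 ± 0.15). HIST1H2BG and HIST1H2AE were present in SK-MEL-5 but 3.85 ± 0.15 and 3.10 ± 0.087 higher on the log2 scale in MALME-3M. No library of either line overlapped the other for these 8 genes. HIST1H1A, HIST1H1B, HIST1H2BH, HIST1H2BG and HIST1H2AE were named here after their values were seen.

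The members that were lower in MALME-3M differed by less. The largest differences among those called were HIST2H2AA4 (log2 -1.82), HIST2H2AC (-1.03), HIST1H2BK (-1.0), HIST2H2AA3 (-0.97), HIST2H3A (-0.91) and HIST1H2AC (-0.87). HIST2H3A, with 3.11, 1.20 and 1.11 CPM against 1.02, 0.964 and 0.832 CPM, kept its call in 6 of 18 alternatives, and without the first SK-MEL-5 library its log2 difference was -0.31 (adjusted p 0.453). With the transcript estimates, which gave HIST1H2AC 1636 counts over the 12 libraries against 15148 gene counts, its difference was -1.33. HIST2H2AC was at 69.7, 62.3 and 52.8 CPM in untreated SK-MEL-5 and 29.5, 25.7 and 34.9 CPM in untreated MALME-3M (adjusted p 2.69e-08), without overlap. HIST1H2BK, whose message is also known in a polyadenylated form, was at 190, 195 and 177 CPM against 102, 89.1 and 90.1 CPM (adjusted p 9.1e-07), and with the transcript estimates its log2 difference was -0.53 (adjusted p 0.000448). HIST2H2AA4 was at 29.5, 7.30 and 6.08 CPM against 3.84, 3.79 and 4.21 CPM, and without the first SK-MEL-5 library its log2 difference was -0.76.

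HIST2H2AA3 with HIST2H2AA4, HIST2H3A with HIST2H3C and HIST2H4A with HIST2H4B are pairs of near-identical copies, for which the split of reads is uncertain. The transcript estimates gave the HIST2H2AA copies a summed level of 604 ± 31 estimated CPM in untreated SK-MEL-5 and 245 ± 2.1 in untreated MALME-3M (SD, n = 3), all assigned to HIST2H2AA4, with a log2 difference of -1.26 ± 0.058 (edgeR adjusted p 9.04e-09). The gene counts give the same copies levels of 7.31, 6.58 and 5.67 CPM for HIST2H2AA3 in untreated SK-MEL-5 and the HIST2H2AA4 levels above, so most of their reads are outside the gene counts. Over the 63 members with at least 50 gene counts, the median ratio of estimated to gene counts was 0.638; 50 were within 1.5-fold of it, 7 were over 2-fold above it and 4 over 2-fold below.

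Members near silent in SK-MEL-5 lay next to members with clear counts there. In the stretch of chromosome 6 from 26017085 to 26285638, 28 of 31 members were tested, 14 were higher and 8 lower in untreated MALME-3M, and 7 of the 10 members that were at least 8-fold higher lie here. HIST1H2BH, HIST1H3G and HIST1H2BI follow each other in this stretch, but HIST1H3F just before them was at 29.1, 24.3 and 23.7 CPM in untreated SK-MEL-5 and HIST1H4H just after at 37.9, 34.2 and 37.2 CPM. The other 3, HIST1H3I, HIST1H4L and HIST1H3J, follow each other in the stretch from 27807444 to 27893843, where 12 of 16 were higher and 1 lower. HIST1H1B just before them was expressed in SK-MEL-5 as given above, though higher in MALME-3M. So were HIST1H2AL before it (log2 2.38) and HIST1H2AM after HIST1H3J (log2 2.12). HIST1H2AM overlaps HIST1H3J, and in untreated SK-MEL-5 it averaged 1.06 CPM by gene counts but 99.8 by transcript estimates. In untreated MALME-3M HIST1H2AM averaged 4.62 and 216. Its log2 difference ranged from 1.16 to 2.25 over the alternatives, so its size depends on the counting. All 5 members between 27125897 and 27147515 were lower in MALME-3M, and of the 11 HIST2 members on chromosome 1 (149782689 to 149887916) 2 were higher and 6 lower. Of 11 divergent H2A and H2B pairs with at most 1000 bp between them, 9 had both genes tested, 7 had both called between the untreated lines, and in all 7 the pair differed in the same direction. Among tested pairs without both called, HIST3H2A and HIST3H2BB had opposite signs (log2 -0.13 and 1.34, adjusted p 0.148 and 1.7e-07). HIST1H2BL and HIST1H2AI had the same sign (log2 0.20 and 0.26). The share of same-direction pairs among other neighbouring genes was not computed.

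**Figure D5:**
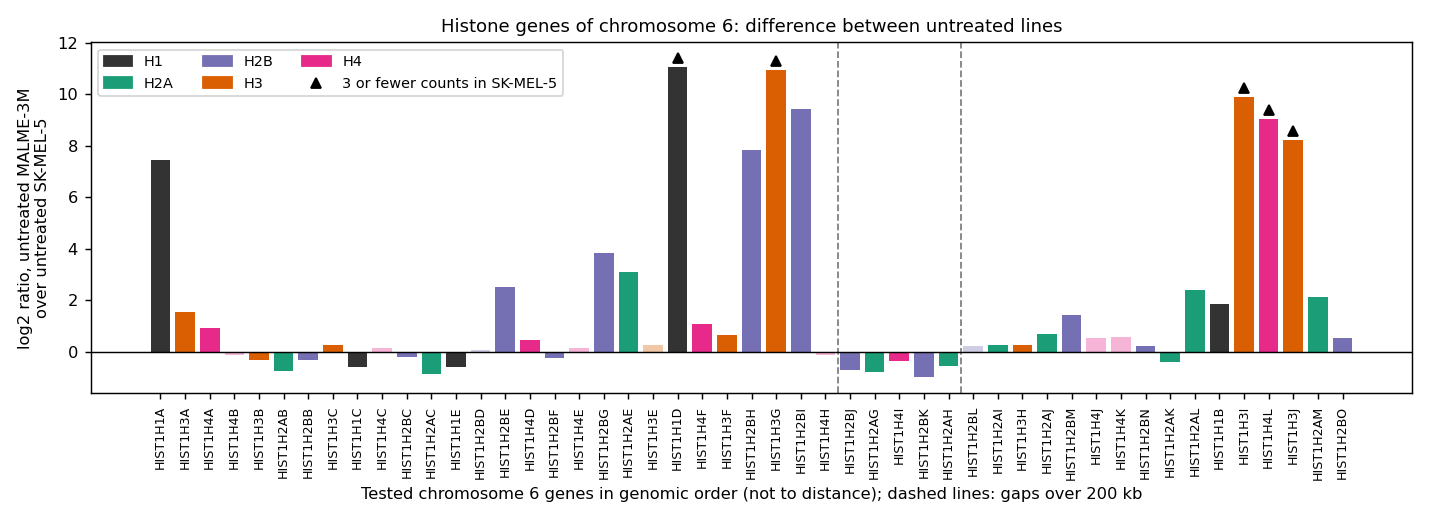
log2 ratio of untreated MALME-3M over untreated SK-MEL-5 (y axis) for the tested chromosome 6 members in genomic order (x axis, not to distance), coloured by class, pale where not called; triangles mark genes with 3 or fewer counts in SK-MEL-5, drawn at their ratio or lower bound. Tall bars such as HIST1H3G and HIST1H2BI stand beside short ones such as HIST1H3F and HIST1H4H.

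Printed promoters of genes at or near 0 in SK-MEL-5 and of genes abundant there shared several motifs. HIST1H1D, at 0 counts in SK-MEL-5, holds the H1 box and the CCAAT box as does HIST1H1C, and HIST1H2BI holds the octamer and the CCAAT box as does HIST1H2BK, though it lacks TATAAA. HIST3H2BB and its neighbour HIST3H2A hold 3 CCAAT boxes each and no octamer. Of the 9 members called with IFN-γ in SK-MEL-5 that matched a promoter, HIST2H3D alone has the interferon-stimulated core, and it fell.

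Some histone genes also make messages that carry a poly(A) tail, and these can end beyond the stem-loop and so hold it. The shares below are of transcript models without the stem-loop letters, and they do not measure the messages with a poly(A) tail. A model that ends far beyond the stem-loop counts as holding it, as for HIST4H4 with 1510 bases after it. Transcript models without the stem-loop held 12.9% to 16.1% of the estimated counts of HIST1H2BD in untreated SK-MEL-5 and 3.52% to 5.77% in untreated MALME-3M, and 10.4% to 15.4% and 3.43% to 4.18% after IFN-γ. For HIST1H2BC the shares were 1.21% to 1.55% and 0.0881% to 0.663% untreated and 1.70% to 2.14% and 0.213% to 0.358% treated. In both genes every SK-MEL-5 library was above every MALME-3M library. The same held barely for HIST2H2BF (77.8% to 84.1% and 75.3% to 77.5% untreated, 78.2% to 82.2% and 72.5% to 77.7% treated). Its lowest SK-MEL-5 share was 77.75% and its highest MALME-3M share 77.69%. For HIST1H2BC the treated SK-MEL-5 libraries were above the untreated ones. Of 6 genes with models of both kinds the lines overlapped in the other 3: untreated SK-MEL-5 and MALME-3M shares were 7.11% to 8.62% and 4.83% to 9.09% for HIST4H4, 7.06% to 23.3% and 0% to 25.2% for HIST1H2AC, and 90.4% to 91.6% and 89.7% to 92.4% for HIST1H2BN. HIST2H2BE, HIST1H2BK and HIST4H4, known for messages with a poly(A) tail, were called between the untreated lines (log2 -0.69, -1.0 and -0.53, adjusted p 4.94e-08, 9.1e-07 and 0.000983). None of the 3 was called with IFN-γ in either line, with adjusted p from 0.233 to 0.862.

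Of 26 genes for the transcription, processing and decay of histone messages, 1 rose and 1 fell in SK-MEL-5 (7.69% called, against 13.0% of all genes), and 3 rose and 2 fell in MALME-3M (19.2%, against 18.3%). POU2F1, the octamer factor, rose in both lines (log2 0.25 ± 0.069 and 0.28 ± 0.071, adjusted p 0.0197 and 0.00874). FIP1L1, of the cleavage and polyadenylation machinery, was the gene that fell in SK-MEL-5 (log2 -0.75, adjusted p 0.0295), and in MALME-3M ERI1, a histone message exonuclease, and SYMPK, a scaffold of the cleavage complex, rose (log2 0.25 and 0.17) while CDK2, the S phase kinase that phosphorylates NPAT, fell by 0.23. NPAT, the S phase activator of histone genes, fell by 0.31 on the log2 scale in MALME-3M (adjusted p 0.00379), from 52.5, 57.4 and 63.0 CPM to 50.5, 46.3 and 43.3 CPM, and its log2 change in SK-MEL-5 was -0.12 ± 0.068 (adjusted p 0.324). SLBP, the stem-loop binder, had log2 changes of 0.04 and 0.05 (adjusted p 0.739 and 0.646) but was lower in untreated MALME-3M by a log2 difference of -0.70 ± 0.064 (adjusted p 1.09e-08), with 42.5, 43.8 and 45.9 CPM against 73.5, 70.3 and 70.6 CPM. Between the untreated lines 5 of the 26 were higher and 14 lower in MALME-3M (73.1%), and of the 30 S phase genes 9 were higher and 14 lower (76.7%), against 71.7% of all genes, 34.5% higher and 37.2% lower.

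The replication-independent histones are made outside S phase as well. Of 11 tested, 1 rose and 1 fell in SK-MEL-5 (18.2%, against 13.0% of all genes), and 1 rose and 2 fell in MALME-3M (27.3%, against 18.3%). H1F0, a linker histone known to build up in cells that have left the cycle, rose in both lines: from 113, 105 and 103 CPM to 155, 166 and 162 CPM in SK-MEL-5 (log2 0.59 ± 0.063, adjusted p 1.28e-06) and from 49.9, 55.1 and 48.1 CPM to 70.5, 71.6 and 63.1 CPM in MALME-3M (log2 0.42 ± 0.065, adjusted p 0.0001). H2AFZ, which encodes H2A.Z, fell in both, by 0.29 and 0.45 on the log2 scale (adjusted p 0.000543 and 2.47e-06). H2AFV, the second H2A.Z gene, fell in MALME-3M from 214, 224 and 211 CPM to 166, 164 and 168 CPM (log2 -0.38 ± 0.047, adjusted p 8.53e-06).

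Of 16 histone chaperones, NAP1L1 was called in both lines, with log2 changes of -0.26 and -0.31, as the single call in SK-MEL-5 (6.25%, against 13.0% of all genes) and 1 of 4 lower in MALME-3M (25.0%, against 18.3%). Of 30 S phase genes 2 fell in SK-MEL-5 (6.67%, against 13.0% of all genes), and 1 rose and 3 fell in MALME-3M (13.3%, against 18.3%), shares of calls below the background. In SK-MEL-5, however, treated libraries lay below all untreated ones for 10 of the 30 and above for 2, against 17.4% and 11.7% of all genes. In MALME-3M they lay below for 6 and above for 4, against 16.6% and 16.5%. TYMS, which makes thymidylate for DNA synthesis, fell in both lines, from 359, 388 and 363 CPM to 320, 319 and 307 CPM in SK-MEL-5 and from 272, 245 and 243 CPM to 211, 215 and 216 CPM in MALME-3M (log2 -0.23 ± 0.049 and -0.24 ± 0.050, adjusted p 0.00347 and 0.00179). RRM1, a subunit of ribonucleotide reductase, fell in MALME-3M (log2 -0.31 ± 0.057, adjusted p 0.000521), and E2F1 rose there (log2 0.35 ± 0.11, adjusted p 0.027).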

How the data were processed

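The authors deposited for each of the 12 libraries whole-number read counts per gene without normalization, per the file headers and summary lines of HTSeq, and a table of estimated counts and TPM values per transcript, per the file headers of kallisto; TPM was not used. Build hg38 and the tools STAR, HTSeq, kallisto, cutadapt and SAMtools stand in the submitters' processing notes; for versions, gene annotation and strand setting, nothing is given in the sources used here, and where genes overlap or run antisense their reads cannot be separated. HTSeq's summary lines entered neither totals nor tests; relative to the gene counts, non-unique alignments were 7.47 to 13.7 times as many, alignments without a feature 0.533 to 0.850 times, and ambiguous ones 4.19% to 4.54%. Near-identical histone genes lose reads this way.

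Tests on gene counts used edgeR 4.0.16 under R 4.3.3 (TMM, filterByExpr with a minimum count of 10, 15810 genes and 63 of 69 members kept, a quasi-likelihood fit of all 12 libraries with 8 residual degrees of freedom and 1 mean per group); CPM use TMM-scaled library sizes. The fit was tested on simulated counts with changes set in treated SK-MEL-5 alone. They held no difference between the untreated lines and no lost reads of near-identical genes, so that test does not bear on those results. A fold against 0 counts uses a floor of 3 counts per group; with 1 to 3 counts the 95% Clopper-Pearson interval is given, and both cover counting error only. DESeq2 1.42.0 and rounded estimated counts summed to genes by GENCODE 29 (44.3% of the listed transcripts could be tied to a gene, 13497 genes tested) served as alternatives. Replicate numbers only name libraries. The members, lists and tests were chosen with earlier results of these data known. Named were the 10 highest members, those called with IFN-γ or in the difference, the 6 largest differences in each direction between untreated lines, members at 0 and members known for polyadenylated or testis transcripts, and up to 4 called genes per context list. Other members named, such as neighbours, near-identical copies and genes with several transcript models, were chosen after their values were seen.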

Additional observations from a re-analysis of the deposited data

Results flagged for a closer look

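For 4 genes the change with IFN-γ differed between the lines by edgeR's test of the difference itself, given as the MALME-3M minus the SK-MEL-5 log2 fold change. It was -1.02 for HIST3H2BB, -0.83 for HIST1H2BG and -0.29 for HIST1H2BC, with adjusted p of 0.00568, 0.0287 and 0.0271. Of 17 alternatives the calls of these genes were lost in 1, 7 and 8. For H2AFV, a replication-independent H2A.Z gene, it was -0.27 (adjusted p 0.0223), with a log2 change of -0.11 in SK-MEL-5 and -0.38 in MALME-3M. Dose and medium differ between the lines as well and cannot be told apart from line.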

How the results depend on the processing

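No paired analysis was possible because the labels give no replicate numbers. No single-gene result changed its direction in any alternative; single calls were lost in 31 comparisons with the other alternatives and in 87 that left out 1 library, the others keeping their side of the threshold. With the transcript estimates the counts were 2 higher and 2 lower in SK-MEL-5, 1 higher and 3 lower in MALME-3M and 0 lower for the difference of responses, and the log2 ratio of the summed level in SK-MEL-5 was 0.0019 against -0.08. Those estimates leave the difference for HIST3H2BB at an adjusted p of 0.0687. With the 6 libraries of SK-MEL-5 alone, 2 were higher and 3 lower. DESeq2 gave 14 lower in MALME-3M and 5 lower for the difference. The cause of these shifts was not tested.

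Leaving out 1 library at a time, the counts higher and lower ranged from 2 to 4 and from 1 to 6 in SK-MEL-5, from 0 to 1 and from 4 to 11 in MALME-3M, from 0 to 0 and from 1 to 4 for the difference, from 29 to 32 and from 19 to 22 between untreated lines, and from 27 to 29 and from 21 to 24 between treated lines. The log2 ratio of the summed level ranged from -0.11 to -0.05, from -0.15 to -0.10, from 0.18 to 0.26 and from 0.12 to 0.18 in SK-MEL-5, MALME-3M, untreated and treated lines. A group with 2 libraries left was tested with the spread of all groups. At this depth a member with no counts in a group could reach 0.0497 to 0.0572 CPM, so silence below that level is not shown.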
